A study of Mus musculus with 4 samples.

Results

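The proteasome genes of the mouse colon were described on 4 arrays, 1 for each group: mock, TNBS, and TNBS given together with ginger extract or with zingerone. Genes were taken by name, where the symbol in the platform annotation, updated through synonyms, began with Psm, a letter from a to g and a digit. This gave 46 of 16637 named genes, read by 55 probes. Of these, 44 encode proteasome subunits, activators, an inhibitor or assembly chaperones. The other 2, Psmc3ip and Psme3ip1, are named for their binding to such proteins and are given apart. Of the 44 genes, 40 were measured, meaning that they reached the median intensity of the named probes (270.5 on the mock array) on at least 1 array. The 4 that were not measured are Psma8, an alpha subunit of germ cells, the base subunits Psmc4 and Psmd2, and the activator Psme4. Psma8 read 130.5 to 153 and Psmd2 202 to 219.8. Psme4 falls below the threshold only as the average of unlike probes, 1 dim (117 to 137.5) and 1 above it on every array (464 in mock, 378 in TNBS, 381 with ginger and 397 with zingerone). Psmc4 read 84.6 to 96 on the 4 arrays, close to the lowest intensity in the table (74.2), although the proteasome of every cell holds this subunit, so its probe gives no usable level. No probe in the annotation used here carries the names Psma5, Psmb3, Psmb11 or Psmg4.

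Colon RNA came from female mice, with the strain labelled BALB/c for the mock array and BALC/c for the other 3 arrays. The study had 24 mice in 4 groups of 6, and tissue was taken on day 7. Mock mice received 0.1 ml of 50% ethanol alone, and TNBS mice received trinitrobenzene sulfonic acid, which haptenates proteins and provokes colitis, at 250 mg/kg in the same vehicle. The 2 treated groups received the same amount of TNBS in the same vehicle mixed with ginger extract or with zingerone, a phenolic ketone of ginger. All 4 groups therefore share the ethanol vehicle, and ginger and zingerone reached the mice in one mixture with TNBS, not before or after it. RNA was extracted from colon, with no cell type sorted. Whether RNA was pooled over mice before hybridisation, and which of the various amounts of ginger or zingerone the mice of an array were given, is not in the labels used here. Each group has 1 array, so there is no replicate, no test can be made, and precision is limited by that number. Where no fold is stated, a gene counted as higher or lower differed at least 2-fold between a pair of arrays. Each level below is a Cy3 intensity on a linear scale, and levels of different probes are not compared. The epithelial markers Epcam (16460 to 23980) and Vil1 (1733 to 3098) were bright on every array.

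The proteasome degrades proteins tagged with ubiquitin and supplies most peptides shown on MHC class I. Its barrel-shaped core has outer rings of alpha subunits, which gate the entry, and inner rings of beta subunits, 3 of which cut proteins: Psmb6, Psmb7 and Psmb5. In immune cells, and in other cells exposed to interferon gamma, newly built cores take up Psmb9, Psmb10 and Psmb8 in their place and are called immunoproteasomes. A cap made of a base, whose ATPases unfold the substrate, and a lid, which removes ubiquitin, sits on the core. Psme1 and Psme2 form an alternative cap that interferon gamma also induces, and further proteins help to assemble core and base.

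Promoter sequences are shown for the 3 immune subunits, whose arrays are described first, and for Psmd13 and Psmd8 of the lid, which were also 2-fold apart. They come from RefSeq (build GRCm38.p6), run 5′ to 3′ on the gene's strand and end at the base before the annotated start of transcription. Windows from 250 bases before to 50 bases after the start were searched on both strands. The motifs were GAAA and GAAA 2 bases apart (core of the interferon-stimulated response element), TTCNNNGAA (gamma-activated site), GGGA and CC 4 bases apart (core of an NF-κB site) and TGACNNNGC (antioxidant response element). Capitals mark matches to any of them.
Psmb8, chr17:34198045-34198194, plus strand: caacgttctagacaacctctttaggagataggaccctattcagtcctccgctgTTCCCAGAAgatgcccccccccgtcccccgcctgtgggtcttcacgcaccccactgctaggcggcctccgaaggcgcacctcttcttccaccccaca
Psmb9, chr17:34187331-34187480, minus strand: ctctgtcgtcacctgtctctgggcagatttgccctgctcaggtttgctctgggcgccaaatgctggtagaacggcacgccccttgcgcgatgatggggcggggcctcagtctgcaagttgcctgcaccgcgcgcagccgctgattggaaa
Psmb10, chr8:105938393-105938542, minus strand: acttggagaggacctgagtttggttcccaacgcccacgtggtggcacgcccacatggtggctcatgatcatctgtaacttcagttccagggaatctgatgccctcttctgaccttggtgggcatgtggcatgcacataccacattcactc
Psmd13, chr7:140882314-140882393, plus strand: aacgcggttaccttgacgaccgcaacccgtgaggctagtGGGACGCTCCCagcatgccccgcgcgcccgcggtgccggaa
Psmd8, chr7:29180674-29180823, minus strand: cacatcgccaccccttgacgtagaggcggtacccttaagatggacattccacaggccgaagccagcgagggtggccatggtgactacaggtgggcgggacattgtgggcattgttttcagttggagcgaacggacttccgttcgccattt

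The Psmb8 window held the gamma-activated letters, whose first base is at -97 from the start, and no motif was found in the windows of Psmb9, Psmb10 and Psmd8. In the Psmd13 stretch the capitals are 2 overlapping matches to the NF-κB letters, 1 on each strand. RefSeq windows were found for 40 proteasome genes, 43 windows in all. The gamma-activated letters were in 3 of the 43 windows (6.98%), against 8.30% of all 32851 windows, and the NF-κB letters in 9 (20.9%), against 20.7%. The antioxidant letters were in 6 windows (14.0%, against 12.4%), among them those of Psmb5 and Psmb6. The interferon-stimulated letters were in 5 windows (11.6%, against 3.44% of all), those of Psmb3, Psmd4, Psmd9, Psme1 and Psmg4. The matches are descriptions of letters and no binding was measured. By gene order in RefSeq, Psmb9 and Psmb8 lie in the MHC region of chromosome 17 in the order Psmb9, Tap1, Psmb8, Tap2, while Psmb10 lies on chromosome 8.

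The immune catalytic subunits had the largest median difference of the 9 proteasome groups between TNBS and mock, and they were lower on the TNBS array. Psmb9, the immune counterpart of Psmb6, read 3683 in mock, 1289.5 in TNBS, 1056 with ginger and 898 with zingerone. Psmb10, the counterpart of Psmb7, read 5734, 1951, 2692 and 3017 on the same arrays. Psmb8, the counterpart of Psmb5, read 1716, 1050.3, 918 and 868. For each of the 3 genes the mock array was the highest of the 4. The same held for the constitutive beta genes Psmb1, Psmb4 and Psmb5, and for members of other groups. On the TNBS array Psmb10 was 2.94-fold, Psmb9 2.86-fold and Psmb8 1.63-fold lower than on mock. The median of the group was -1.51 (log2, TNBS minus mock), beside -0.04 for all 10056 measured genes.

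Between TNBS and mock, the probes of these genes differed in size but not in direction. Of the Psmb10 probes, 1 read 4887 on mock and 1066 on TNBS, a log2 difference of -2.20, and the brighter one 6729 and 3569, a difference of -0.91. The Psmb8 probes read 869 and 362 (-1.26) and 3388 and 3050 (-0.15), so the size for Psmb8 depends on the probe. With the brightest probe alone Psmb10 was under 2-fold and the group median was -0.91. Psmb9 has 1 probe.

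**Figure D1:**
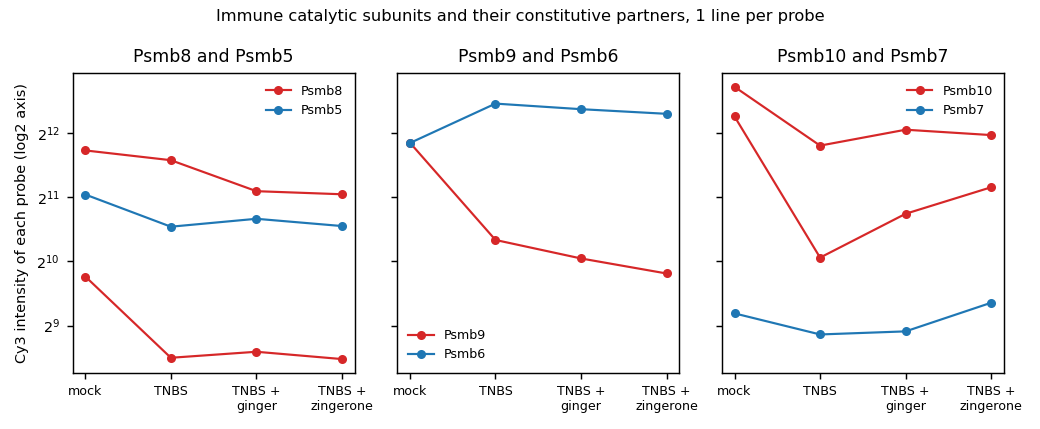
Cy3 intensity (log2 axis) of every probe of Psmb8, Psmb9 and Psmb10 (red) and of their constitutive partners Psmb5, Psmb6 and Psmb7 (blue) on the 4 arrays, 1 line per probe; heights of different probes are not comparable. Each red line is highest on mock, and the single Psmb9 line runs from 3683 on mock to 898 on zingerone. Of the blue lines, Psmb5 is also highest on mock (2105), while Psmb6 is lowest on mock (3671).

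The constitutive partners did not share one direction. Psmb6, which cuts after acidic residues, read 3671 in mock, 5616 in TNBS, 5288 with ginger and 5030 with zingerone, 1.53-fold higher on TNBS than on mock. Psmb5, the chymotrypsin-like subunit, read 2105, 1488, 1621 and 1499, 1.41-fold lower on TNBS. Psmb7, the trypsin-like subunit, read 584, 465, 481 and 655, 1.26-fold lower. The TNBS-to-mock ratio of the immune subunit was 4.37-fold below that of its partner for Psmb9 and Psmb6, 2.34-fold for Psmb10 and Psmb7 and 1.15-fold for Psmb8 and Psmb5. These compare ratios within a probe and not levels between probes. The values for Psmb10 and Psmb8 average unlike probes. With the brighter probe of each (log2, TNBS minus mock), Psmb10 (-0.91) was still below Psmb7 (-0.33). Psmb8 (-0.15) was then above Psmb5 (-0.50), so the direction for that pair depends on the probe. In tissue RNA, fewer cells of a type and less RNA per cell cannot be told apart.

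Of the 40 measured proteasome genes, 4 were lower on TNBS than on mock, Psmb9, Psmb10, Psma4 and Psmd13, and 1, Psmd8, was higher. That is 10% lower and 2.5% higher, beside 4.52% lower and 5.08% higher among all measured genes. With the brightest probe of each gene 3 were lower, without Psmb10. Without the immune subunits 2 of 37 were lower (5.41%), close to the share over all genes. These 2, Psma4 (-1.07) and Psmd13 (-1.03), lie close to the 2-fold limit and rest on 1 probe each. Of 8 members with several probes, Psme3ip1 among them, the probes shared a sign in 4, with a median gap of 0.57 on the log2 scale. At 1.5-fold, 14 of the 40 differed (35%), 6 higher and 8 lower, beside 24.1% of all measured genes (11.8% higher and 12.2% lower). The median over the 40 genes was -0.10, and 18 lay above and 22 below the mock value.

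**Figure D2:**
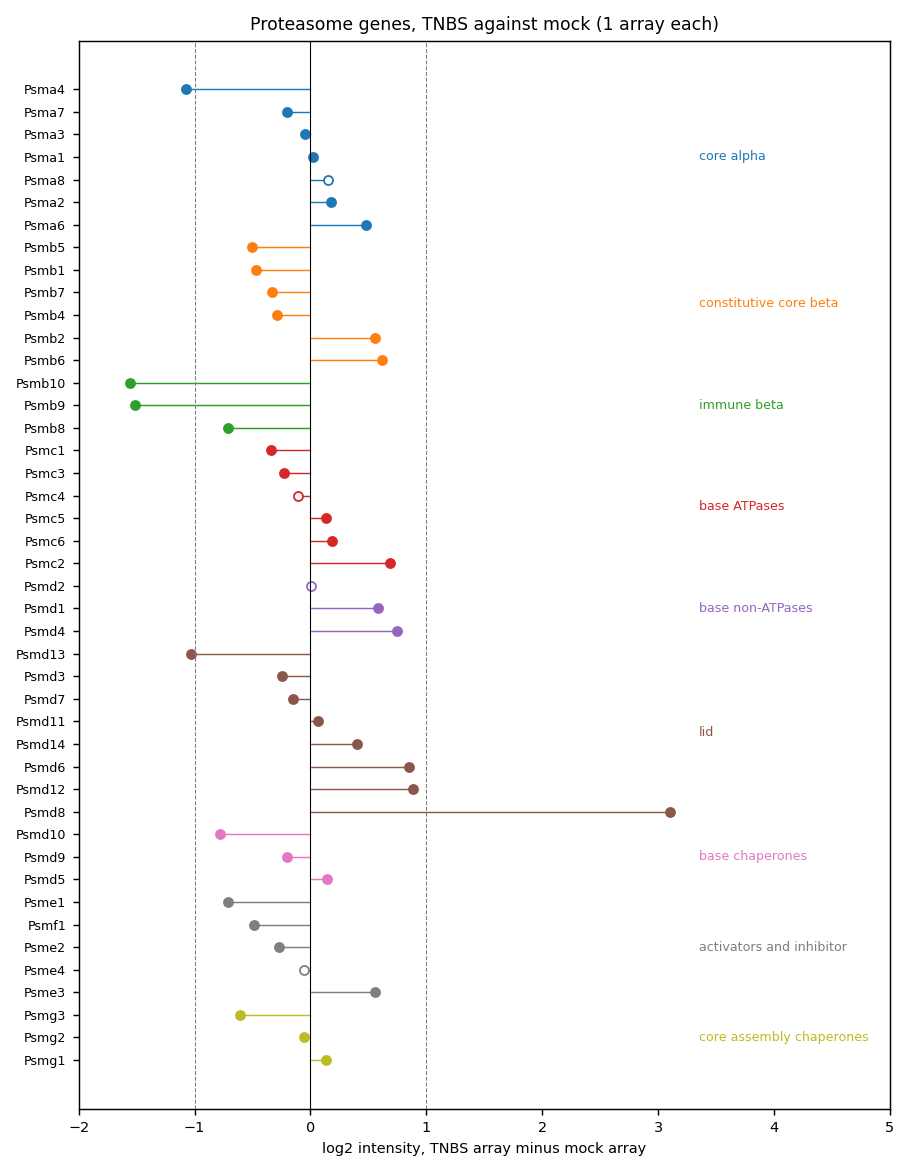
Log2 difference in Cy3 intensity between the TNBS and mock arrays for the 44 proteasome genes with a probe, coloured by group; open circles are the 4 genes not measured and dashed lines mark 2-fold. Psmb9, Psmb10, Psma4 and Psmd13 lie left of the lower line and Psmd8 lies far right at 3.10.

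The alpha ring genes were mostly alike on mock and TNBS. Of 6 measured members 3 were above and 3 below the mock value, with a median of -0.01, and 5 were within 1.5-fold. The exception was Psma4, which read 1345 in mock, 639 in TNBS, 862 with ginger and 1527 with zingerone. It was 2.10-fold lower on TNBS than on mock and 2.39-fold higher on zingerone than on TNBS. TNBS was thus the lowest of its arrays and zingerone the highest. The other alpha genes ranged from -0.21 (Psma7) to 0.48 (Psma6), and the 3 Psma3 probes differed in sign (-0.32 to 0.11). The 6 constitutive beta genes had a median of -0.31, from -0.50 (Psmb5) to 0.61 (Psmb6), with none past 2-fold.

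In the base, the ATPase genes had a median of 0.14 (5 measured). Psmc2, an ATPase of the ring, read 788 in mock, 1267 in TNBS, 1151 with ginger and 1165 with zingerone, 1.61-fold higher on TNBS than on mock. The ubiquitin receptor Psmd4 read 3540, 5946, 5724 and 4770, 1.68-fold higher on TNBS, and Psmd1, the large scaffold of the base, differed by 0.58. The other ATPases ranged from -0.34 (Psmc1) to 0.18 (Psmc6), and the Psmc6 probes differed in sign (-0.16 and 0.52). All these values stayed under 2-fold.

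The lid held the widest range, from -1.03 to 3.10, with a median of 0.23 over 8 genes. Psmd8 read 415 in mock, 3569 in TNBS, 2598 with ginger and 2422 with zingerone, 8.60-fold higher on TNBS than on mock. The mock array stood apart here, 5.84-fold below the nearest of the other 3, which were within 1.47-fold of each other. The value rests on 1 probe and 1 array. Psmd13 differed in the opposite direction and read 2207 in mock, 1078 in TNBS, 1529 with ginger and 2745 with zingerone, 2.05-fold lower on TNBS than on mock. Psmd12 (1067 on mock, 1969 on TNBS, 1557 on ginger, 1810 on zingerone) and Psmd6 (1647, 2973, 2191 and 2471) were 1.85-fold and 1.80-fold higher on TNBS. Psmd14, the lid's deubiquitinase, differed by 0.40, and Psmd3, Psmd7 and Psmd11 by -0.25, -0.15 and 0.06. Lid genes thus lay on both sides of mock, 5 above and 3 below.

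Among the activators, Psme1, the partner of Psme2 in the interferon-induced cap, was highest on mock. Psme1 read 2221 in mock, 1358 in TNBS, 1435 with ginger and 1348 with zingerone, 1.63-fold lower on TNBS, with both probes lower (-0.50 and -0.92). Psme2 read 272, 225, 242.5 and 242.2 and passed the filter through the mock array alone, so its highest reading there follows from the filter. Its probe is too dim to size a difference. The group ran from -0.71 (Psme1) to 0.56 (Psme3, an activator found in the nucleus), with a median of -0.38 over 4 genes, Psme2 among them. With a filter at the 75th percentile, which Psme2 does not pass, the median was -0.49. The inhibitor Psmf1 read 998 in mock, 711 in TNBS, 768 with ginger and 1217 with zingerone.

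Of the chaperones that assemble the base, Psmd10 (also known as gankyrin) read 1169 in mock, 680.0 in TNBS, 803 with ginger and 797 with zingerone, 1.72-fold lower on TNBS. Psmd5 differed by 0.14, and Psmd9 reached the filter on zingerone alone. Among core assembly chaperones, Psmg3 read 878, 578, 744 and 724, 1.52-fold lower on TNBS, while Psmg1 (0.13) and Psmg2 (-0.06) were close to mock. Medians were -0.20 for the 3 base chaperones and -0.06 for the 3 core chaperones. The base chaperone median is the value of Psmd9, whose probes differed in sign (-0.53 and 0.13), and with the brightest probe it was 0.13. Outside the proteasome itself, Psmc3ip, a protein of meiotic recombination, read 390 in mock, 209 in TNBS, 301 with ginger and 432 with zingerone. Psme3ip1 differed by -0.21 between TNBS and mock.

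**Figure D3:**
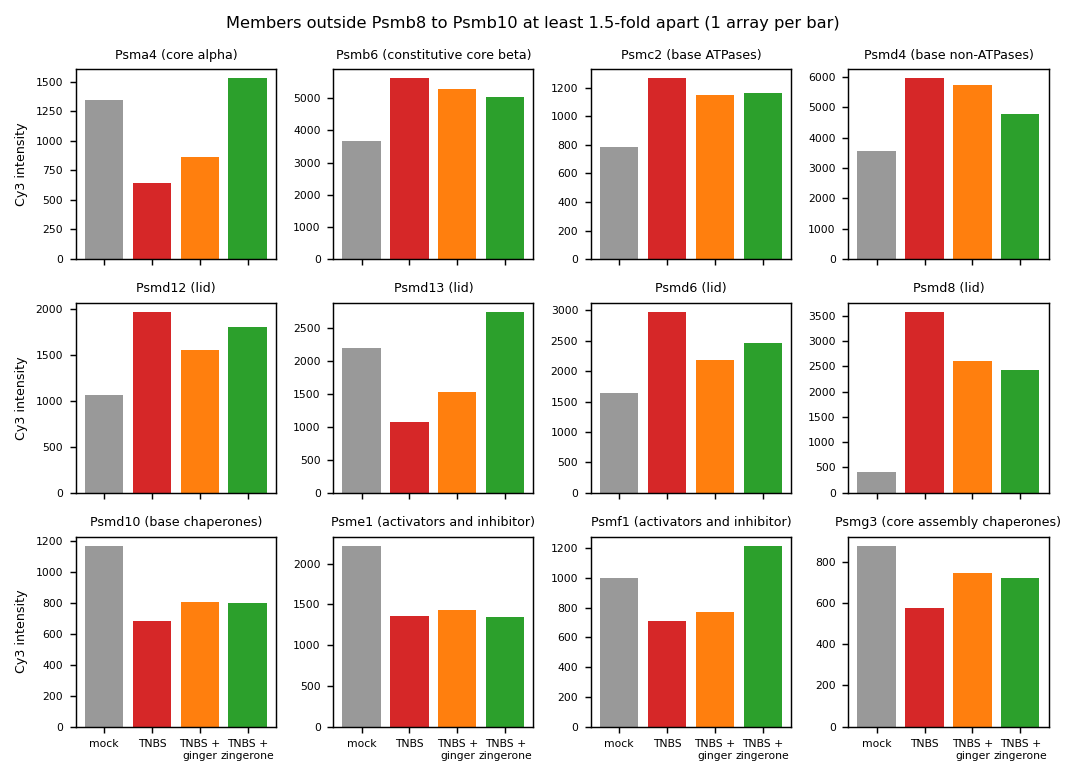
Cy3 intensity on the 4 arrays (bars, 1 array each, axes from 0) for the 12 measured proteasome genes other than Psmb8 to Psmb10 that were at least 1.5-fold apart between TNBS and mock or between a treated array and TNBS. Psmd8 is low on mock alone (415), and Psma4, Psmd13 and Psmf1 are lowest on TNBS and highest on zingerone.

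Ginger extract with TNBS was compared with TNBS alone. None of the 40 measured proteasome genes differed 2-fold, beside 3.83% of all measured genes, and none differed 1.5-fold, beside 12.5%. The differences ranged from -0.46 (Psmd8) to 0.50 (Psmd13). With no replicate array there is no test behind these counts of 0, and no unadjusted p-value exists. The median absolute log2 difference was 0.18 for the 40 genes and 0.21 for all measured genes. Group medians were -0.02 for the alpha ring, -0.07 for constitutive beta, -0.19 for immune beta, -0.14 for base ATPases, -0.16 for the 2 base non-ATPases, -0.26 for the lid, 0.10 for base chaperones, 0.09 for activators and inhibitor, and 0.28 for core chaperones. With the brightest probe the base chaperone median was -0.059. Of the immune subunits, Psmb9 was 1.22-fold and Psmb8 1.14-fold lower on ginger than on TNBS, and Psmb10 was 1.38-fold higher. The Psmb8 probes differed in sign here (-0.48 and 0.09).

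For zingerone, too, the comparison was with the TNBS array. Psmd13 was 2.55-fold and Psma4 2.39-fold higher, each on 1 probe, and none was 2-fold lower. These 2 of 40 (5%) stand beside 4.57% of all measured genes called higher and 2.96% called lower, so the share was that of the background. At 1.5-fold, Psmf1 (1.71-fold) and Psmb10 (1.55-fold) were also higher, which makes 4 of 40 (10%), all higher, beside 21.7% of all measured genes in either direction and 13.1% higher. Psmb10 rests here on unlike probes (1.09 and 0.16 on the log2 scale), and with the brighter one alone it was under 1.5-fold. Group medians were 0.01 for the alpha ring, -0.07 for constitutive beta, -0.28 for immune beta, -0.12 for base ATPases, -0.38 for the 2 base non-ATPases, 0.03 for the lid, 0.23 for base chaperones, 0.21 for activators and inhibitor, and 0.33 for core chaperones. The base ATPase median was 0.053 with the brightest probe and 0.030 with no filter, and the base chaperone median was 0 with the brightest probe. Of the base chaperones, Psmd9 (0.52) passed the filter through the zingerone array alone, so its highest reading there follows from the filter. With a filter at the 75th percentile, which Psmd9 does not pass, the base chaperone median was 0.023. Psmb9 was 1.44-fold and Psmb8 1.21-fold lower on zingerone than on TNBS. Ginger and zingerone share the TNBS array in these comparisons, so their values are given side by side only.

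**Figure D4:**
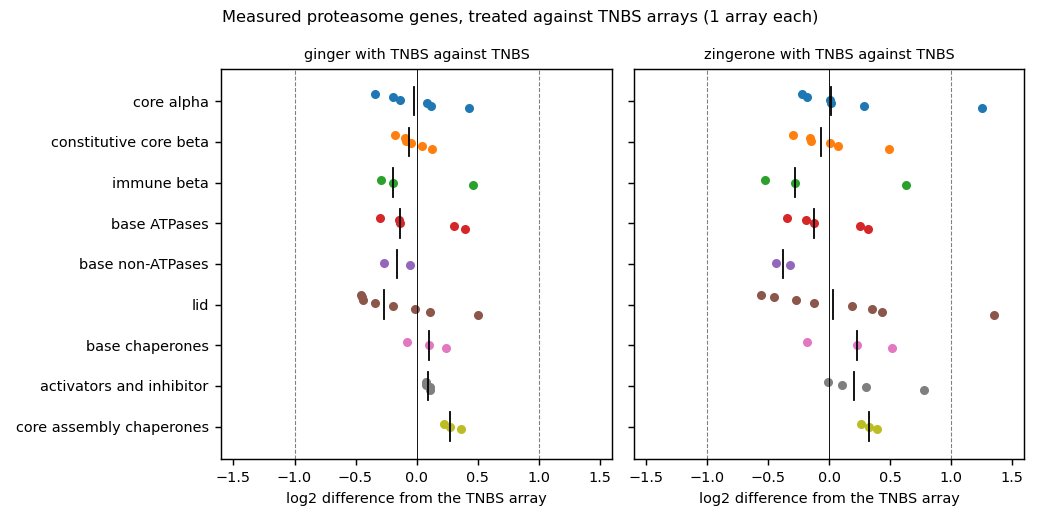
Log2 difference in Cy3 intensity from the TNBS array for the 40 measured proteasome genes on the ginger array (left) and the zingerone array (right), by group; points are genes, black bars are group medians and dashed lines mark 2-fold. All ginger points lie between -0.46 and 0.50, and Psma4 (1.26) and Psmd13 (1.35) lie past the line on zingerone.

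Against mock, the immune subunits had the lowest differences of the 40 genes on both treated arrays when probes were averaged. With the brightest probe, Psmb8 (-0.63) lay above Psma4 (-0.64) on ginger, and on zingerone Psmb8 (-0.68) and Psmb10 (-0.75) lay above Psme1 (-0.77). Both comparisons use the same mock array. Psmb9 was 3.49-fold lower on ginger and 4.10-fold lower on zingerone, and Psmb10 was 2.13-fold and 1.90-fold lower. Psmb8 was 1.87-fold lower on ginger and 1.98-fold lower on zingerone. The median of the 3 was -1.09 on ginger and -0.98 on zingerone, beside 0.01 on both for all measured genes. Counted over the 40 genes, 2 were lower on ginger, Psmb9 and Psmb10 (5%, beside 1.08% of all measured genes; Psmb9 alone with the brightest probe), and 1 on zingerone, Psmb9 (2.5%, beside 1.05%). Psmd8 alone was higher, 6.26-fold on ginger and 5.84-fold on zingerone, which is 2.5% beside 1.62% and 1.53%. At 1.5-fold, 8 genes differed on ginger (20%, beside 10.2%) and 10 on zingerone (25%, beside 11.5%). Without the immune subunits these were 5 of 37 on ginger (13.5%) and 7 of 37 on zingerone (18.9%). Ginger and zingerone themselves differed 2-fold in none of the 40 genes (beside 1.10% of all). The immune subunits' median was -0.08 there (zingerone minus ginger), and Psmd13 (0.84), Psma4 (0.83) and Psmf1 (0.66) were the 3 past 1.5-fold, each higher on zingerone, which is 7.5% beside 6.43% of all measured genes.

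Genes that work with the immunoproteasome were read from lists of known pathway genes. Of 9 measured genes of MHC class I antigen processing, 1 was lower on TNBS than on mock and none was higher, beside 4.52% lower and 5.08% higher among all measured genes, with a median of -0.23. That gene was Tapbpl, a peptide editor of MHC class I (566 on mock, 238 on TNBS, 318 on ginger, 276 on zingerone, -1.25 on the log2 scale between TNBS and mock). The peptide transporter genes beside Psmb8 and Psmb9 differed less: Tap1 read 464, 327, 322 and 283, and Tap2 1557, 1521, 1216 and 1039.8. B2m, the light chain of MHC class I, was highest on TNBS and read 25088 in mock, 41248 in TNBS, 21693 with ginger and 19961 with zingerone. Of 6 measured genes that lead from interferon gamma to the immunoproteasome none was 2-fold apart, beside 9.61% of all measured genes (median -0.31). Irf1, a transcription factor that activates Psmb9, was the lowest of these and read 2476 in mock, 1376 in TNBS, 1247.5 with ginger and 1107.5 with zingerone. Ifng itself was not measured (194 to 236).

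Other genes of the pathway were within 2-fold. Of 8 further measured proteasome genes 3 were above and 5 below the mock value on TNBS (median -0.13), with Usp14, a deubiquitinase of the cap, highest at 0.97. Pomp, which helps to assemble the core, read 3994 in mock, 3525 in TNBS, 3546 with ginger and 3136 with zingerone. The 4 measured genes around NRF1, the factor that raises proteasome genes when proteasome activity falls short, were all above mock on TNBS, from 0.33 to 0.66. Nfe2l1, which encodes NRF1, was the highest of them and read 1129 in mock, 1788 in TNBS, 1162 with ginger and 1173 with zingerone. Of 4 measured ubiquitin receptors and shuttles none was 2-fold apart (median 0.05). Called genes were 0 of 8, 0 of 4 and 0 of 4 in these lists, beside 9.61% of all measured genes.

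Cell type markers also differed between the arrays, and their part in the immune subunit values was not tested. The 6 measured pan-leukocyte markers of a list of 8 were all above mock on TNBS (median 0.64, none 2-fold). The summed intensity of the 7 with a probe was 14018 in mock, 18283 in TNBS, 12127 with ginger and 10622 with zingerone. That sum is weighted to bright probes, above all Lcp1 (7121, 7210, 4684 and 5157 on the same arrays). By gene, 4 of the 6 were above mock on ginger (median 0.13) and 1 on zingerone (median -0.34). On TNBS the 6 ranged from 0.02 (Lcp1) to 0.90 (Coro1a) against mock, with Ptpn6 (0.04) also close to mock. Of these markers Rac2 was not measured (80.5 to 99.5). B and plasma cell markers were lower on TNBS, 3 of 4 measured past 2-fold (beside 4.52% of all measured genes). The sum of all 5 with a probe was 7791 in mock, 3599 in TNBS, 5261 with ginger and 5926 with zingerone. It is weighted to Jchain (4924, 1799, 2948 and 3834 on the same arrays). By gene, all 4 measured were above TNBS on ginger. On zingerone 3 were above TNBS and Cd79a was below it (-0.26 on the log2 scale). T and NK cell markers were mostly dim, with 2 of 8 measured (Cd3e 0.10, Cd3g -0.41), and Cd4, Gzma, Gzmb, Nkg7 and Klrb1c were not measured. Macrophage markers had a median of 0.33 (5 measured), with 3 above mock and 2 below. They ranged from -0.38 (Adgre1) to 1.19 (Cd68) on the log2 scale, and Cd68 was the only 1 past 2-fold. All 5 measured neutrophil markers of 6 were at least 2-fold higher (beside 5.08% of all measured genes). The sum of all 6 was 4897 in mock, 146289 in TNBS, 95782 with ginger and 74956 with zingerone, weighted to the bright probes of S100a8, S100a9 and Retnlg. By gene, the 5 measured were all below TNBS on both treated arrays. They ranged from -3.52 (Mmp8) to -0.20 (S100a9) on ginger and from -3.70 (Mmp8) to -0.53 (S100a9) on zingerone. Epithelial markers (8 measured) had a median of -0.26, with 3 above mock and 5 below, from -0.84 (Vil1) to 1.08 (Krt18, the only 1 past 2-fold). Smooth muscle markers (5 measured) had a median of -0.55, with 4 below mock and Des above it (0.77), none past 2-fold.

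**Figure D5:**
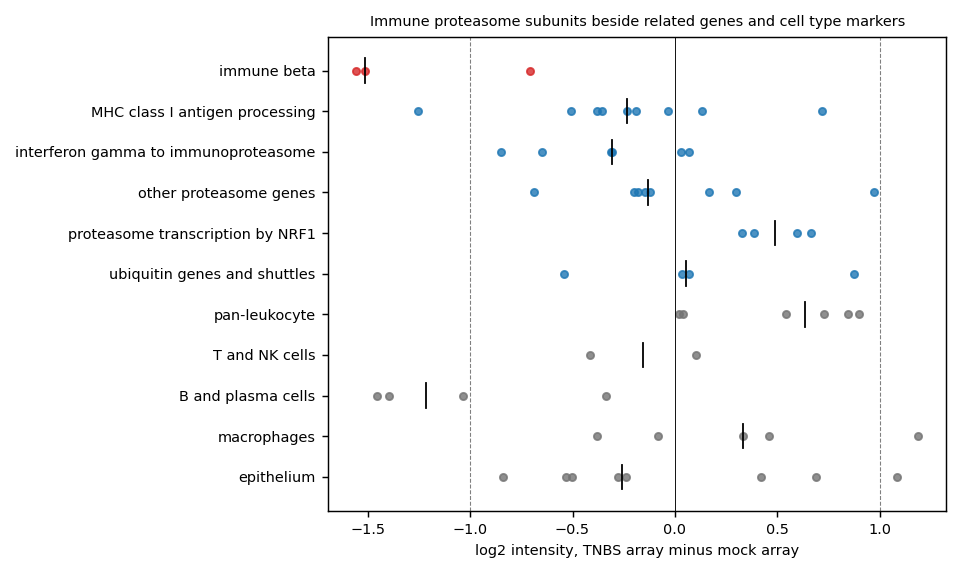
Log2 difference in Cy3 intensity between the TNBS and mock arrays for the measured genes of the immune subunit group (red), related pathway lists (blue) and cell type marker lists (grey; neutrophil and smooth muscle markers are not drawn); black bars are list medians and dashed lines mark 2-fold. The immune subunits (median -1.51) and B and plasma cell markers (median -1.22) lie low, while pan-leukocyte markers (median 0.64) lie above mock.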

How the data were processed

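The values analysed are the deposited linear Cy3 intensity of each probe on each array. For the authors' steps, the submitters' processing notes list limma without saying for what. The sources used here do not give the background handling or the normalization. After sorting, the 4 arrays agree to within 1.84%, as quantile-normalized arrays would, and no intensity is below 74.2, so small intensities may hold background, in which case folds of dim probes would be understated. Background was not measured here.

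Of 29922 probes, 21020 had 1 gene symbol in the platform annotation, 0 had several and 8902 had none. Symbols were updated through RefSeq synonyms (GRCm38.p6). Intensities were taken to log2 with a pseudocount of 0, and probes of a gene averaged. With 1 array per group no test was run. Members and lists were chosen with earlier results of these data known. Named members are Psmb5 to Psmb10, Psme1, Psme2 and measured members 1.5-fold apart between TNBS and mock or a treated array and TNBS. Lists give their counts, genes 2-fold apart and a few listed genes. Others, such as Usp14, were named after their values were seen. Probe sequences were not used here, so cross-reaction with related genes such as Psme2b or pseudogenes was not tested. The steps were checked on simulated data (Python 3.11.15, pandas 2.3.3).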

Additional observations from a re-analysis of the deposited data

How the results depend on the processing

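The values were recomputed under 9 alternative settings. Quantile normalization, equal array medians, symbols as annotated and leaving out probes far off on a single array moved no count of called members past 1.5 times and none of the group medians recomputed by over 0.1 on the log2 scale (base non-ATPases, with 2 genes, were not recomputed). The arrays already share a distribution and 0 probes of members met the rule for far off, so these settings had little to alter and say little about stability. The rule asks for a value at least 4-fold from the nearest other array, with the other arrays close together. Psmd8 on mock, 5.84-fold below the nearest, was kept because its other arrays spanned 1.47-fold, just past the limit for close. No called value turned its sign under any of the 9. The brightest probe per gene had the most effect on Psmb8 to Psmb10. Their median was -0.91 for TNBS minus mock, -0.52 for zingerone minus TNBS, -0.67 for ginger minus mock and -0.75 for zingerone minus mock, 3 members in place of 4 were lower on TNBS than on mock, and 1 in place of 2 on ginger than on mock. With it, the base chaperone median was 0.13 (TNBS minus mock), -0.059 (ginger minus TNBS) and 0 (zingerone minus TNBS). Base ATPases were then at -0.007 (ginger minus TNBS) and 0.053 (zingerone minus TNBS), and activators with the inhibitor at 0.10 (zingerone minus TNBS). Subtracting each array's 5th percentile gave -1.19 for the immune subunits and 2 lower members for zingerone minus mock, Psmb8 being the second, and -0.55 for activators and -0.37 for base chaperones (TNBS minus mock). The activator median was -0.49 with a filter at the 75th percentile and -0.27 with a floor at the 25th percentile or with no filter. Against TNBS on zingerone it was 0.31, 0.10 and 0.10 in these settings. Base chaperones were at -0.32 (TNBS minus mock) and 0.023 (zingerone minus TNBS) with the 75th percentile filter. With no filter, base ATPases were at 0.013 (TNBS minus mock) and 0.030 (zingerone minus TNBS). The medians that moved are each over 2 to 6 genes, and the cause of each move was not tested. No paired analysis was possible because each group has 1 array. Low signal limits Psme2, Psmd9, Psma8, Psmc4, Psmd2 and 1 of the 2 Psme4 probes.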
